A study of Homo sapiens with 4 samples.

Results

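The genes described here are 38 members of the NRF2 pathway and of the antioxidant enzyme families that work beside it, taken by symbol from a list of their known roles out of 57773 genes in the deposited tables. Their transcript levels come from RNA-seq of A2780 cells, an ovarian cancer line of human origin that is long established and carries the genotype WT. The cells had been treated with wogonin, a plant flavone, at 10 ug/mL for 48 h (2 libraries, numbered 3 and 4) or with its vehicle DMSO (2 libraries, numbered 1 and 2, with no treatment time given). The study asked whether wogonin slows ovarian cancer through DNA demethylation.

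NRF2, encoded by NFE2L2, is a transcription factor that is made continuously and destroyed continuously, because the adaptor KEAP1 hands it to a ubiquitin ligase. Electrophiles and oxidants modify cysteines of KEAP1, NRF2 then accumulates, pairs with a small MAF protein such as MAFG and binds the antioxidant response element. BACH1 competes for the same element as a repressor. The genes driven in this way make glutathione, reduce thioredoxin, remove peroxides and conjugate foreign compounds. Since NRF2 is controlled mainly as a protein, the transcript levels given below do not measure its activity.

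Each library held between 11005921 and 11839562 exon reads, and a floor of 3 reads came to 0.253 to 0.273 CPM, the count scaled to library size. Whether the libraries within each group were separate cultures is not stated, and the p-values then cover just the spread among these samples, which may be technical. Of 9 markers of ovarian cancer epithelium, among them EPCAM, KRT8 and PAX8, none was above 0.733 CPM in any library, and MUC16 was at 0 throughout. The label of ovarian adenocarcinoma therefore had no support from these markers. Markers of blood and vessel cells (PTPRC, CD3E, MS4A1, VWF and CDH5) were at 0 in every library. Of the other listed immune markers, CD14 was at or below 0.28 CPM in every library and CD68 lay between 15.2 and 21.1 CPM. PECAM1, a further listed vessel marker, was not matched by symbol. Of 4 fibroblast markers DCN, LUM and PDGFRB were at or below 1.88 CPM in every library, while the matrix gene COL3A1 lay between 597 and 763 CPM. The summed level of these 4 was 608.7 and 600.3 CPM in wogonin, against 766.3 and 710.7 CPM in DMSO, and its part in the results was not tested. Intron reads were 7.96% of all reads of exon-bearing genes in wogonin 3, against 5.61% in wogonin 4, 5.26% in DMSO 1 and 5.29% in DMSO 2, and the part of that excess in the results was not tested. In bulk libraries of this kind, fewer cells of a type and less RNA per cell cannot be told apart.

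Proximal promoters of the members were searched for the core of the antioxidant response element, TGACNNNGC, on both strands. RefSeq windows of 300 bases (250 before to 50 after a transcript start, build GRCh38.p14) were at hand for 31 of the 38 members, and 7 of these 31 (22.6%) held at least 1 match in any of their windows, against 16.1% of 27305 genes. The members had 51 windows for 31 genes, and all genes had 35116 windows for 27305 genes. A gene with more windows has more places for a match, so these shares are not like for like. EPHX1, called higher in wogonin, also had a match before its start and is not shown. MGST1, likewise called higher, had its only match after the start and is not shown. Further matches of TXNRD1 and GSTO1 are not shown either. The stretches below show 5 members whose match lies before the start and that did not move alike, with every match within a stretch in capitals. They are written 5′ to 3′ on the strand of the gene, so a match on the other strand reads GCNNNGTCA.
GCLM (chr1:93909431-93909490, minus strand): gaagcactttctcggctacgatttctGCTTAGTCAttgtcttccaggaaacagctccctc
TXNRD1 (chr12:104286904-104286963, plus strand): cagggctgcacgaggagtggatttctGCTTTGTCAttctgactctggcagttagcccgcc
KEAP1 (chr19:10502792-10502851, minus strand): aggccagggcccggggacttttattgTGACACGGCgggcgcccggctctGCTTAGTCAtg
GSTP1 (chr11:67583720-67583779, plus strand): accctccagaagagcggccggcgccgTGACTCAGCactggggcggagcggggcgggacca
GSTO1 (chr10:104254705-104254764, plus strand): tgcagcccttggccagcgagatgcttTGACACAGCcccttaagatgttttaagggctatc
The values given below were higher after wogonin for GCLM and TXNRD1, lower for KEAP1 and GSTO1, and without a passed difference for GSTP1. By the same search, 4 of 14 members that rose and had a window held a match, against 2 of 9 that fell and 1 of 7 that did not pass. A match is a description of the letters in these windows, and enhancers farther from the start were not searched.

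The members did not move as 1 block. Of 36 members with enough reads to test, 16 were higher and 9 lower in wogonin than in DMSO (edgeR quasi-likelihood test with p-values adjusted by Benjamini-Hochberg over 13449 genes, threshold 0.05), and 11 did not pass. A log2 change below is always that of wogonin over DMSO. That is 69.4% of the tested members, beside 63.8% of all genes tested, so the number of calls is close to the background. Higher calls made up 32.3% and lower calls 31.5% of all genes. The changes were mostly small. Their median was 0.11 log2 units, beside 0.00 for all genes, and 13 of the 25 called members changed by less than 0.5 log2 units. With that size also required, 8 members were higher, as were 18.3% of all genes tested, and 4 were lower, as were 21.3% of all genes tested. The groups did not overlap in 31 of the 36 members, beside 81.9% of all genes. DESeq2 called 21 of the 36, beside 49.8% of all genes. GPX1 and MGST2 had too few exon reads to test.

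**Figure D1:**
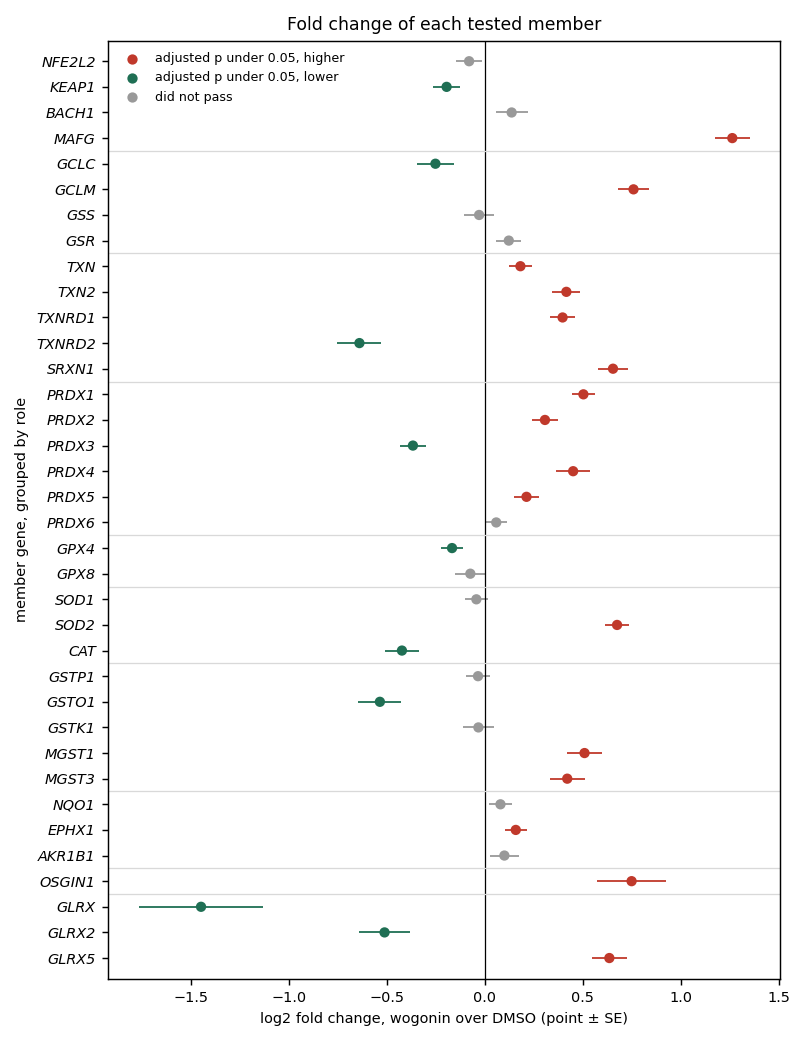
Log2 fold change of each tested member, wogonin over DMSO, as a point with its standard error (edgeR), with members grouped by role from the regulators at the top to the glutaredoxins at the bottom. MAFG lies farthest to the right at 1.26 and GLRX farthest to the left at -1.45, and most roles hold points on both sides of 0.

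Among the regulators, the transcript of NRF2 itself did not pass, while that of its partner MAFG was more than double. NFE2L2 (ENSG00000116044, chromosome 2, 178092323 to 178257425 in the coordinates of the deposited files, GRCh37) had 119.6 and 129.5 CPM in wogonin 3 and 4, against 130.6 and 132.9 CPM in DMSO 1 and 2. The difference was a log2 change of -0.08 ± 0.07 (SE, edgeR adjusted p = 0.295). With library totals alone as the scaling, under which all genes had a median of -0.09, it was -0.17 and passed, and in gene reads that include introns it was 0.025.

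MAFG, a small MAF protein that pairs with NRF2 or BACH1 and has no activation domain of its own, showed the largest rise of the members (ENSG00000197063, chromosome 17, 79876146 to 79885590). It had 88.0 and 100.3 CPM in the wogonin libraries, against 41.6 and 37.0 CPM in the DMSO libraries, a log2 change of 1.26 ± 0.09 (SE, edgeR adjusted p = 5.97e-09). The groups lay far apart. Only 38.7% of its exon reads in wogonin and 40.6% in DMSO matched a single place, and in those reads the log2 change was 1.19. MAFG overlaps SIRT7 on the same strand over 3054 bases, and SIRT7 had 321 and 293 exon reads in wogonin, against 297 and 300 in DMSO.

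KEAP1, the adaptor that marks NRF2 for destruction (ENSG00000079999, chromosome 19, 10596796 to 10614417), fell slightly. It had 97.8 and 92.6 CPM in wogonin, against 112.4 and 105.7 CPM in DMSO, a log2 change of -0.20 ± 0.07 (SE, edgeR adjusted p = 0.0219). That call was lost with DESeq2 (adjusted p = 0.0911), without DMSO 1 and without wogonin 4 (edgeR adjusted p = 0.12 and 0.115). The repressor BACH1 had 55.6 and 59.2 CPM in wogonin, against 53.4 and 51.1 CPM in DMSO, and did not pass (edgeR adjusted p = 0.155).

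Glutathione is built in steps by glutamate-cysteine ligase, a pair of a catalytic subunit (GCLC) and a modifier subunit (GCLM), and by glutathione synthetase (GSS), and its oxidised form is reduced by GSR. The subunits of the ligase went opposite ways. GCLM (ENSG00000023909, chromosome 1, 94350761 to 94374966) had 94.2 and 106.8 CPM in wogonin, against 59.4 and 59.5 CPM in DMSO, a log2 change of 0.76 ± 0.08 (SE, edgeR adjusted p = 4.26e-07). GCLC (ENSG00000001084, chromosome 6, 53362139 to 53481768) had 33.6 and 30.9 CPM in wogonin, against 38.5 and 38.3 CPM in DMSO, a log2 change of -0.25 ± 0.09 (SE, edgeR adjusted p = 0.0274).

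The fall of GCLC was the weaker of these calls. It was lost with DESeq2 (adjusted p = 0.157) and without DMSO 1, DMSO 2 or wogonin 4 (edgeR adjusted p between 0.0828 and 0.151). Per length, the TPM (the authors' deposited values, which scale reads by exon length and library) of GCLM over that of GCLC was 4.41 and 5.45 in wogonin 3 and 4, against 2.43 and 2.44 in DMSO 1 and 2. With 2 libraries a group, exact permutation reaches no p under 0.333, so this ratio has no test of its own. GSS had 77.4 and 76.0 CPM in wogonin, within the 73.9 and 82.6 CPM of the DMSO libraries. GSR had 189 and 198.6 CPM in wogonin, against 185.7 and 170.6 CPM in DMSO. Neither passed (edgeR adjusted p = 0.753 and 0.102), but with an exon length trend removed GSR passed as higher (log2 change 0.16, edgeR adjusted p = 0.0361) and the log2 change of GSS was 0.021 rather than -0.03.

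In the thioredoxin system 4 of 5 members rose and TXNRD2 fell, where 32.3% of all genes tested rose and 31.5% fell. Thioredoxin passes electrons to peroxiredoxins and to ribonucleotide reductase, and thioredoxin reductase recharges it from NADPH. TXNRD1, the cytosolic reductase and a selenoprotein (ENSG00000198431, chromosome 12, 104609557 to 104744061), had 180.5 and 187.6 CPM in wogonin, against 135.8 and 143.9 CPM in DMSO, a log2 change of 0.40 ± 0.06 (SE, edgeR adjusted p = 3.51e-05). TXNRD2, the mitochondrial reductase, had 18.9 and 19.4 CPM in wogonin, against 32.0 and 27.8 CPM in DMSO, a log2 change of -0.64 ± 0.11 (SE, edgeR adjusted p = 1.04e-04).

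The balance of the reductases differed accordingly. The TPM of TXNRD1 was 10.4 and 10.6 times that of TXNRD2 in wogonin, against 4.65 and 5.67 times in DMSO. Both thioredoxins were called higher. The TPM of TXN was 4.38 and 4.72 times that of TXN2 in wogonin, against 5.12 and 5.58 times in DMSO. Mitochondrial TXN2 had 100.4 and 97.3 CPM in wogonin, against 74.6 and 73.7 CPM in DMSO (log2 change 0.42, edgeR adjusted p = 8.1e-05). Cytosolic TXN had 245 and 255.6 CPM in wogonin, against 212.6 and 229 CPM in DMSO (log2 change 0.18, edgeR adjusted p = 0.0141). The TXN call was lost with library totals alone (log2 change 0.088), upper-quartile scaling, gene reads, without DMSO 1 (0.11) and without wogonin 4 (0.15), and its TPM overlapped between the groups (854.9 and 845.5 in wogonin, 788.4 and 866.3 in DMSO).

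SRXN1 encodes sulfiredoxin, which repairs overoxidised peroxiredoxins and is a commonly used NRF2 target (ENSG00000271303, chromosome 20, 627259 to 634014). It had 90.0 and 93.3 CPM in wogonin, against 57.6 and 58.9 CPM in DMSO, a log2 change of 0.65 ± 0.07 (SE, edgeR adjusted p = 1.06e-06). The groups did not overlap. Most of its reads were shared with another place, since 8.05% in wogonin and 7.64% in DMSO were unique. An annotated protein-coding gene on the same strand covers 6745 bases of SRXN1 and was listed at 0 exon reads in every library. In the unique reads, which were 80 and 79 in wogonin and 54 and 53 in DMSO, the log2 change was 0.73 (edgeR adjusted p = 0.00206).

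Peroxiredoxins are abundant enzymes that reduce hydrogen peroxide with a reactive cysteine, and here 4 of 6 rose, 1 fell and 1 did not pass, beside the same shares of all genes. PRDX1, in the cytosol (ENSG00000117450, chromosome 1, 45976708 to 45988719), had 478.3 and 446 CPM in wogonin, against 336.6 and 315.9 CPM in DMSO, a log2 change of 0.50 ± 0.06 (SE, edgeR adjusted p = 1.4e-06). PRDX3, in mitochondria (ENSG00000165672, chromosome 10, 120927215 to 120938345), had 93.7 and 97.2 CPM in wogonin, against 124 and 122.4 CPM in DMSO, a log2 change of -0.37 ± 0.07 (SE, edgeR adjusted p = 1.41e-04). The TPM of PRDX1 was 11.5 and 10.3 times that of PRDX3 in wogonin, against 6.09 and 5.80 times in DMSO.

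PRDX4 of the endoplasmic reticulum had 85.7 and 73.5 CPM in wogonin, against 60.2 and 56.3 CPM in DMSO, and cytosolic PRDX2 had 303.9 and 267.9 CPM in wogonin, against 234.8 and 227.7 CPM in DMSO. Their log2 changes were 0.45 and 0.31 (edgeR adjusted p = 2.48e-04 and 5.8e-04), and in both the groups stood apart. PRDX2 overlaps HOOK2 on the same strand over 5061 bases, and HOOK2 had 493 and 484 exon reads in wogonin, against 457 and 398 in DMSO. Unique reads were 68.3% of the exon reads of PRDX2 in wogonin and 68.6% in DMSO, and in them its log2 change was 0.30. PRDX5, found in several compartments, rose by 0.21 (edgeR adjusted p = 0.00713), but its TPM overlapped between the groups, and the call was lost with library totals alone (0.12), upper-quartile scaling, gene reads, and without DMSO 1 (0.22), DMSO 2 (0.19) or wogonin 3 (0.14). PRDX6, which uses glutathione as its reductant, had 349.4 and 341.9 CPM in wogonin, against 336.4 and 328 CPM in DMSO (edgeR adjusted p = 0.368), and its sign turned with library totals alone, upper-quartile scaling and gene reads.

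**Figure D2:**
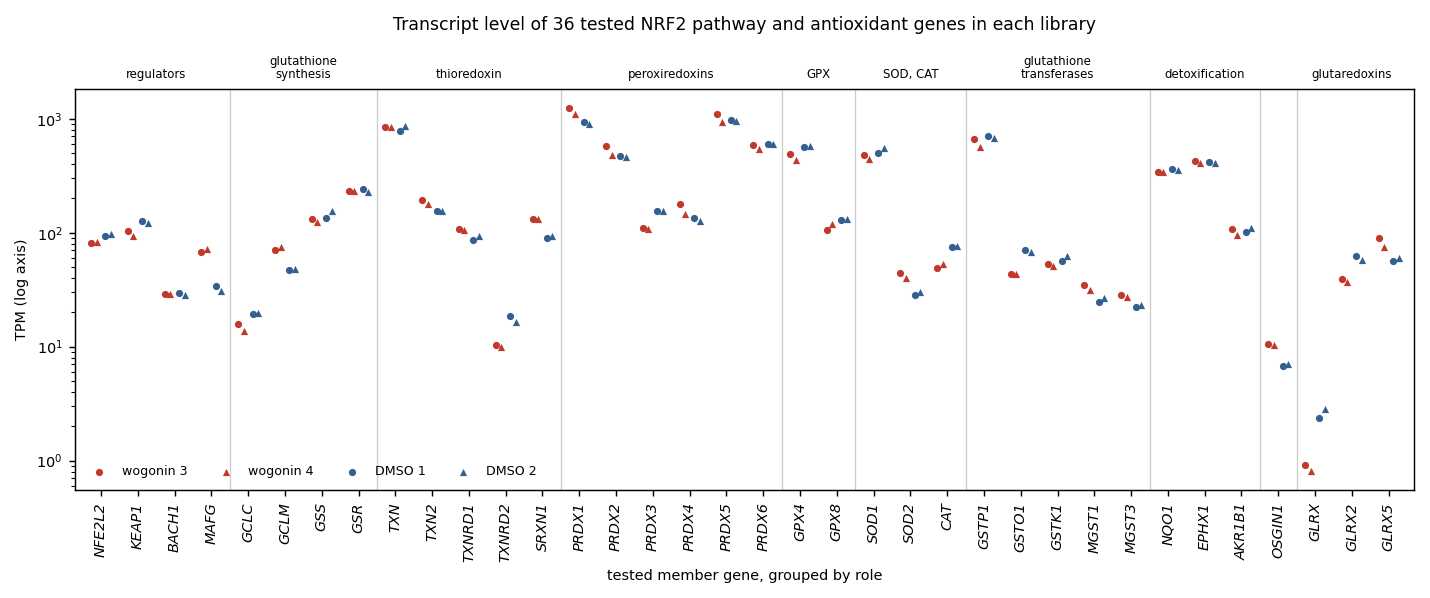
TPM on a log axis of the 36 tested members in each library, grouped by role, with wogonin 3 and 4 in red left of DMSO 1 and 2 in blue. PRDX1 and PRDX5 sit near the top and GLRX near the bottom, and the wogonin points of MAFG, GCLM, SRXN1 and SOD2 lie above and those of TXNRD2, GSTO1 and GLRX2 below their DMSO points.

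Levels differed over a wide range between members, as the plot of TPM by library shows. Per length, PRDX1 stood highest with 1252 and 1107 TPM in wogonin and 936.7 and 896.9 TPM in DMSO. PRDX5 (942.4 to 1101 TPM over the 4 libraries), TXN (788.4 to 866.3) and GSTP1 (559.9 to 703.4) followed, and the ranges of PRDX1 and PRDX5 overlapped. The lowest of the tested members were OSGIN1 (6.75 to 10.6 TPM) and GLRX (0.803 to 2.82 TPM). The 38 members together took 8848 and 8096 TPM in wogonin, against 8323 and 8380 TPM in DMSO, so their summed level did not separate the groups.

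Glutathione peroxidases reduce peroxides with glutathione, and neither of the 2 tested members rose, where 32.3% of all genes tested did. GPX4, the selenoprotein that reduces lipid peroxides in membranes and holds back ferroptosis (ENSG00000167468, chromosome 19, 1103936 to 1106787), had 241.1 and 225.9 CPM in wogonin, against 263 and 261.7 CPM in DMSO. Its log2 change was -0.17 ± 0.06 (SE, edgeR adjusted p = 0.0173). The call was lost with DESeq2 (adjusted p = 0.0551), with an exon length trend removed (log2 change -0.12) and without DMSO 1, DMSO 2 or wogonin 4 (edgeR adjusted p between 0.067 and 0.116).

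GPX8, of the endoplasmic reticulum (ENSG00000164294, chromosome 5, 54455946 to 54462899), had 103.4 and 121.7 CPM in wogonin, against 119.3 and 117.9 CPM in DMSO. It did not pass in all exon reads (edgeR adjusted p = 0.408). Unique reads were 16.5% of its exon reads in wogonin and 20.9% in DMSO, and in them it was lower (log2 change -0.42, edgeR adjusted p = 0.00212), so its result depends on how reads with several places are counted. GPX1, the cytosolic peroxidase, was almost without reads, with 8 and 7 exon reads in wogonin, against 2 and 0 in DMSO.

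Superoxide dismutases turn superoxide into hydrogen peroxide, which catalase then breaks down. SOD2, the mitochondrial manganese enzyme (ENSG00000112096, chromosome 6, 160090089 to 160183561), had 212.4 and 201.7 CPM in wogonin, against 127.3 and 132.1 CPM in DMSO, a log2 change of 0.67 ± 0.06 (SE, edgeR adjusted p = 9.31e-08). The gene model of SOD2 overlaps WTAP and ACAT2 on the opposite strand. ACAT2, a gene of acetyl-CoA metabolism, had 2939 and 3476 exon reads in wogonin, against 1723 and 1784 in DMSO, and WTAP had 934 and 1017 in wogonin, against 1432 and 1413 in DMSO. Without a stated strand setting, reads of these genes and of SOD2 cannot be told apart where their exons overlap. Unique reads were 99.8% of the exon reads of SOD2 in wogonin and 99.6% in DMSO, and in them its log2 change was 0.68 (edgeR adjusted p = 2.39e-09).

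SOD1, the copper and zinc enzyme of the cytosol, did not differ beyond its spread, with 243.3 and 236.6 CPM in wogonin, against 237.7 and 256.9 CPM in DMSO (edgeR adjusted p = 0.53). CAT, the peroxisomal catalase (ENSG00000121691, chromosome 11, 34460472 to 34493609), had 40.9 and 47.5 CPM in wogonin, against 59.0 and 59.5 CPM in DMSO, a log2 change of -0.42 ± 0.09 (SE, edgeR adjusted p = 5.52e-04). SOD2 and CAT thus moved in opposite directions in the same libraries.

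Glutathione transferases join glutathione to electrophiles. Of 5 tested members, 2 rose, 1 fell and 2 did not pass, where 32.3% of all genes tested rose and 31.5% fell. The risers were membrane-bound enzymes. MGST1 (ENSG00000008394, chromosome 12, 16500076 to 16762193) had 54.3 and 52.0 CPM in wogonin, against 36.1 and 38.6 CPM in DMSO, a log2 change of 0.51 ± 0.09 (SE, edgeR adjusted p = 9.11e-05). MGST3 had 45.1 and 46.4 CPM in wogonin, against 33.8 and 34.6 CPM in DMSO (log2 change 0.42, edgeR adjusted p = 6.22e-04).

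GSTO1, an omega-class cytosolic enzyme (ENSG00000148834, chromosome 10, 105995114 to 106027217), fell. It had 18.3 and 19.5 CPM in wogonin, against 28.2 and 26.7 CPM in DMSO, a log2 change of -0.54 ± 0.11 (SE, edgeR adjusted p = 4.32e-04). GSTP1, by far the most abundant of these transferases with 660.6 and 559.9 TPM in wogonin and 703.4 and 672.9 TPM in DMSO, did not pass (log2 change -0.04, edgeR adjusted p = 0.64). GSTK1 did not pass either (edgeR adjusted p = 0.732). MGST2 had 1 and 0 exon reads in wogonin and 0 in both DMSO libraries, while its introns held 92 and 87 reads in wogonin, against 134 and 110 in DMSO. It overlaps MAML3 on the opposite strand over 23993 bases.

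The detoxifying enzymes moved little, among them NQO1, a usual readout of NRF2. NQO1, a quinone reductase (ENSG00000181019, chromosome 16, 69740899 to 69760854), had 280.1 and 295.6 CPM in wogonin, against 277.9 and 267.1 CPM in DMSO. Its log2 change was 0.08 ± 0.06 (SE, edgeR adjusted p = 0.236), and -0.013 under upper-quartile scaling or library totals. EPHX1, a microsomal epoxide hydrolase (ENSG00000143819, chromosome 1, 225997794 to 226033260), had 269.2 and 269.8 CPM in wogonin, against 247 and 236.5 CPM in DMSO, a log2 change of 0.16 ± 0.06 (SE, edgeR adjusted p = 0.0214). That call was lost with DESeq2 (adjusted p = 0.0649), with library totals alone (log2 change 0.065), upper-quartile scaling, gene reads, and without DMSO 1, DMSO 2 or wogonin 4 (edgeR adjusted p between 0.0574 and 0.169). AKR1B1, an aldose reductase, had 99.4 and 92.9 CPM in wogonin, against 87.3 and 92.3 CPM in DMSO, and did not pass (log2 change 0.10, edgeR adjusted p = 0.241).

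OSGIN1, an oxidative stress-induced growth inhibitor (ENSG00000140961, chromosome 16, 83981887 to 83999937), was low but higher after wogonin. It had 99 and 103 exon reads in wogonin, against 65 and 69 in DMSO, or 9.24 and 9.50 CPM against 5.51 and 5.63 CPM. The log2 change was 0.75 ± 0.18 (SE, edgeR adjusted p = 0.00152).

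Glutaredoxins reduce mixed disulfides with glutathione, and GLRX5 carries iron-sulfur clusters in mitochondria. All 3 members passed, and 2 of them fell, where 63.8% of all genes tested passed and 31.5% fell. GLRX, the cytosolic enzyme (ENSG00000173221, chromosome 5, 95087023 to 95158709), had 16 and 15 exon reads in wogonin, against 43 and 52 in DMSO. Its log2 change of -1.45 ± 0.32 (SE, edgeR adjusted p = 7.84e-04) was the largest fall of the members and rested on the fewest reads. Unique reads made up 29.0% of its exon reads in wogonin and 15.8% in DMSO, too few for a fit on them, and RHOBTB3 lies over the gene on the opposite strand. GLRX2, also mitochondrial, had 12.7 CPM in both wogonin libraries, against 19.0 and 17.3 CPM in DMSO (log2 change -0.51, edgeR adjusted p = 0.0023).

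GLRX5 (ENSG00000182512, chromosome 14, 95999840 to 96011061) rose. It had 64.3 and 56.1 CPM in wogonin, against 37.7 and 39.7 CPM in DMSO, a log2 change of 0.63 ± 0.09 (SE, edgeR adjusted p = 1.4e-05). Together with TXN2, TXNRD2, PRDX3, PRDX5, SOD2 and GLRX2 it makes the 7 members assigned to mitochondria for this count, PRDX5 also working elsewhere. Mitochondrial forms of members without that assignment were not counted. All 7 passed, 4 as higher and 3 as lower, where 32.3% of all genes tested were higher and 31.5% lower. Of 5 tested members of the endoplasmic reticulum and microsomal membranes (PRDX4, GPX8, MGST1, MGST3 and EPHX1), 4 rose, beside the same 32.3% of all genes, and GPX8 did not pass. Neither group was tested against that background, and the calls of PRDX5 and EPHX1 were lost under several alternatives, as given above. Mitochondrial genes of the mitochondrial chromosome took 1.67% and 3.03% of exon reads in wogonin 3 and 4, against 1.65% and 1.45% in DMSO 1 and 2. Leaving those genes out changed no call of a member.

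**Figure D3:**
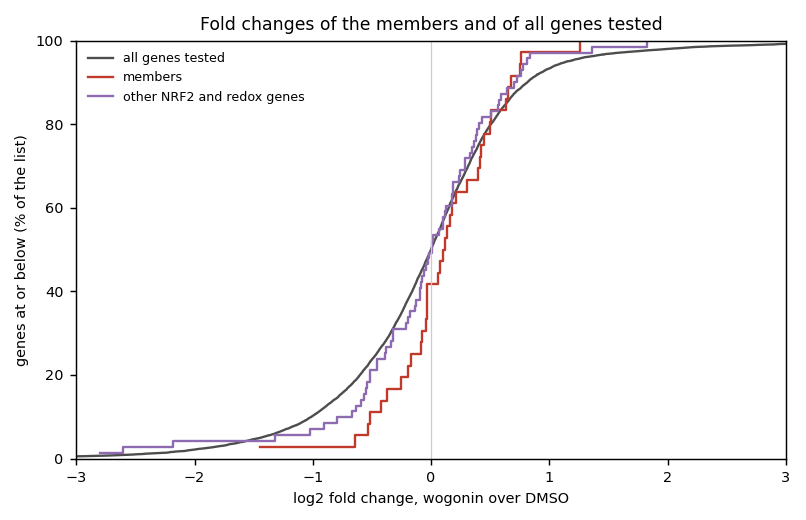
Cumulative share of genes, in percent, by log2 change of wogonin over DMSO for all 13449 genes tested (grey), the 36 tested members (red) and 71 other tested NRF2 and redox genes (purple). The members' curve is steeper than that of all genes and lies to its right below 0, with a median of 0.11, and the axis stops at 3 log2 units on each side.

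Intron reads, which can come from unspliced transcripts, gave a second, much shallower readout. Of 26 members with enough intron reads to test, 1 was higher and 1 lower (edgeR, adjusted over 10495 genes), beside 20.1% of all genes tested in this way, 11.3% higher and 8.82% lower. SOD1 had 77 and 55 intron reads in wogonin, against 23 and 24 in DMSO. Scaled to intron reads, that is 82.5 and 87.2 CPM against 37.2 and 37.6 CPM, a log2 change of 1.17 (edgeR adjusted p = 0.015), while its exon reads did not pass. GSS had 66.4 and 103.1 intron CPM in wogonin, against 150.6 and 152.1 in DMSO, a log2 change of -0.85 (edgeR adjusted p = 0.0498). DESeq2 called neither of them, and neither call held without DMSO 1 or DMSO 2. Of members that rose in exon reads, MAFG had 13 and 11 in wogonin, against 5 and 6 in DMSO, too few for a test, and GCLM had 36 and 11 in wogonin, against 11 and 12 in DMSO (log2 change 0.66, edgeR adjusted p = 0.339). SOD2 had 141 and 90 intron reads in wogonin, against 55 and 95 in DMSO (log2 change 0.30, edgeR adjusted p = 0.502).

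**Figure D4:**
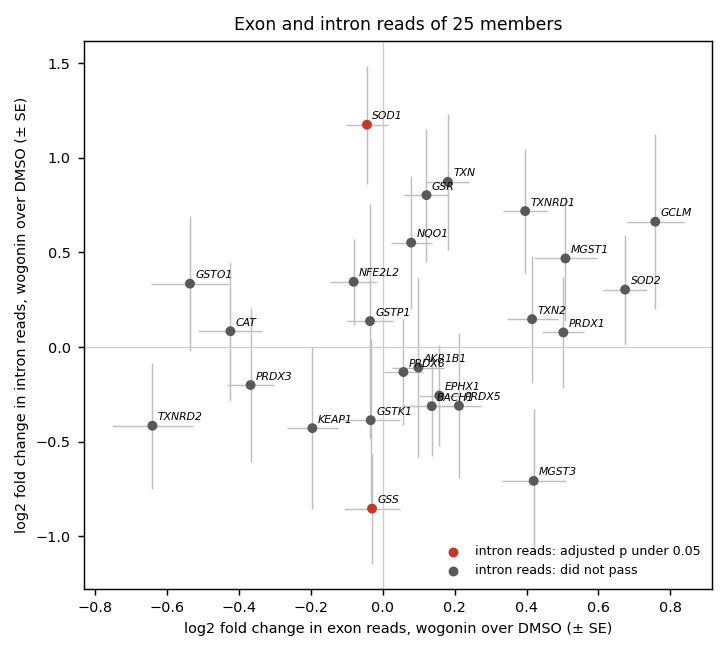
Log2 fold change in intron reads against log2 change in exon reads, wogonin over DMSO with standard errors, for the 25 members tested in both. SOD1 at 1.17 and GSS at -0.85 on the intron axis are in red, both lie near 0 on the exon axis, and the error bars of the other members are wide.

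A list of 86 further genes of NRF2 control, NRF2 targets, NADPH supply and redox enzymes, chosen by role, split evenly. Of 71 tested, 25 rose, 23 fell and 23 did not pass, with a median of 0.00 log2 units. The called share of 67.6% is close to the 63.8% of all genes tested, and the counts by role given next stand beside 32.3% higher and 31.5% lower calls among all genes. The inducible targets HMOX1 and SLC7A11, both used as NRF2 readouts, did not pass. Of the members described above, GCLM, SRXN1 and TXNRD1 rose, GCLC fell and NQO1 did not pass. HMOX1, the inducible heme oxygenase, had 22.1 and 19.2 CPM in wogonin, against 21.1 and 20.8 CPM in DMSO (edgeR adjusted p = 0.883). SLC7A11, the cystine carrier, had 59.9 and 74.6 CPM in wogonin, against 79.5 and 75.9 CPM in DMSO (log2 change -0.21, edgeR adjusted p = 0.0688). Unique reads were 21.5% of its exon reads in wogonin and 20.9% in DMSO, and in them the log2 change was -0.17 (edgeR adjusted p = 0.346). SLC7A11 passed as lower with library totals alone (log2 change -0.30), upper-quartile scaling (-0.30), no filter (-0.22) and total gene reads (-0.29). Its log2 change was -0.38 without wogonin 4 and -0.053 without wogonin 3.

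Of 20 tested targets, 5 rose and 5 fell. TRIM16, a ubiquitin ligase of the oxidative stress response, rose the most of these, with 42.7 and 45.0 CPM in wogonin, against 18.4 and 15.7 CPM in DMSO (log2 change 1.37, edgeR adjusted p = 1.83e-08). Unique reads were 30.9% of its exon reads in wogonin and 34.5% in DMSO, and in them the log2 change was 1.21. FTH1, the heavy chain of the iron store ferritin, had 456.6 and 450.1 CPM in wogonin, against 655 and 639.9 CPM in DMSO (log2 change -0.51, edgeR adjusted p = 3.71e-07). The fatty aldehyde dehydrogenase ALDH3A2 fell by 0.67 on the log2 scale.

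Among 11 tested regulators 3 rose and 4 fell. PALB2, a DNA repair partner of BRCA2 that also binds KEAP1, rose by a log2 change of 0.73, and MAFF, a small MAF protein like MAFG, fell by 0.79. MAFF had 5.88 and 8.57 CPM in wogonin, against 13.4 and 11.7 CPM in DMSO (edgeR adjusted p = 0.00123), so these 2 small MAF genes moved in opposite directions. MAFK, the third of them, did not pass (log2 change 0.24, edgeR adjusted p = 0.0542).

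Of 11 genes of NADPH supply, 5 rose, 5 fell and 1 did not pass. NADK, which makes NADP from NAD, rose by a log2 change of 0.76, and NNT, the mitochondrial transhydrogenase, by 0.64. MTHFD2, a mitochondrial folate enzyme, fell by 0.54.

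Among 29 tested further redox enzymes and thioredoxin regulators, 12 rose and 9 fell. The largest fall of the whole list was that of SEPP1, the secreted selenium carrier selenoprotein P. It had 49 and 48 exon reads in wogonin, against 359 and 398 in DMSO (log2 change -2.80, edgeR adjusted p = 1.23e-10). Unique reads were 34.0% of its exon reads in wogonin and 35.4% in DMSO, and in them the log2 change was -2.85. TXNIP, which binds and inhibits thioredoxin, had 52 and 50 exon reads in wogonin, against 232 and 285 in DMSO (log2 change -2.18, edgeR adjusted p = 7.51e-09). MSRB3, a methionine sulfoxide reductase, rose by a log2 change of 0.78, with 550.2 and 560.9 CPM in wogonin, against 319.1 and 329.7 CPM in DMSO.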

How the data were processed

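The labels' protocols name a Qiagen column for RNA and a SMARTER kit for mRNA libraries. The submitters' processing notes name the builds GRCh37 and hg19. No aligner, counting program or strand setting is given in the sources used here. For each library the authors deposited counts of exon, exon-exon and intron reads per gene, in total and unique to a place, TPM and RPKM values from exon counts and lengths, and the fraction of unique and of intron reads. Tests on total exon counts used edgeR 4.0.16 under R 4.3.3 (filterByExpr, TMM, robust quasi-likelihood fit, 2-sided), with treatment as the single term. Benjamini-Hochberg adjustment ran over every tested gene, and 0.05 was the threshold. CPM are TMM-scaled. The SE is the size of the log2 fold change over the square root of its F statistic. Deposited TPM values served for levels between genes, and RPKM and fraction values were not used. Intron counts of genes with exons were fitted alone. Alternatives were other scalings, filters, count columns and tools (DESeq2 1.42.0, limma-voom 3.58.1), a per-library exon length trend removed by a smoother (span 0.3) in place of TMM, and leaving out each library. The fits were tested on simulated counts. Promoter windows came from RefSeq (GRCh38.p14), matched by symbol, and coordinates of genes are those of the deposited files.

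The members and lists were chosen with earlier results of these data known. All 38 members were accounted for. Values per library were given for the 2 members of each role with the smallest adjusted p and for NFE2L2, KEAP1, NQO1, GCLC, GCLM, TXNRD1 and SRXN1, and other members described that way were added after their values were seen. Of the further list, 86 symbols matched the files. The 3 of each role with the smallest adjusted p and HMOX1 and SLC7A11 were named, of which NFE2L3 stands among the other observations, and MAFK was named after its value was seen. Some items are not reported here.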

Additional observations from a re-analysis of the deposited data

How the results depend on the processing

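Over 17 alternatives on exon or gene reads, 19 of the 25 called members kept call and direction in each one that gave a value (13 higher and 6 lower). For GLRX, 2 alternatives on unique reads gave no value. The 6 that lost the call in at least 1 were KEAP1, GCLC, TXN, PRDX5, GPX4 and EPHX1, and no called member changed sign. Counts of members stayed between 13 and 17 higher and between 6 and 10 lower. With a change of at least 0.5 log2 units also required, 8 members were higher and 4 lower, and 13 and 15 of the further list. Of all genes tested, 18.3% were higher and 21.3% lower at that size. DESeq2 called 49.8% of all genes tested in either direction, and 21 of the 71 tested genes of the further list higher. It called 15 of these 71 lower. Without each library in turn that count ranged from 15, without DMSO 1, to 24. The members' median was 0.018 with library totals alone and with upper-quartile factors, 0.025 in total gene reads and 0.050 in unique gene reads. The first pair of settings moved the median of all genes to -0.09.

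Signs turned only for genes that did not pass, apart from NFE2L3 in gene reads (1.10 in total and 1.05 in unique reads). PRDX6 was at -0.035 and NQO1 at -0.013 with library totals alone and with upper-quartile factors. PRDX6 was at -0.017 in total and -0.0056 in unique gene reads, NQO1 at -0.018 in unique gene reads, and NFE2L2 at 0.025 in total gene reads. With the length trend removed GSS was at 0.021, SOD1 at 0.0010, GSTP1 at 0.012 and HMOX1 at 0.031. Without each library in turn, GSS ranged from -0.12 to 0.048, SOD1 from -0.12 to 0.0079, GSTK1 from -0.11 to 0.020, GPX8 from -0.20 to 0.044, GSTP1 from -0.11 to 0.039 and HMOX1 from -0.12 to 0.073.

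In intron reads, members called lower were 0 with library totals alone and 2 with upper-quartile factors. DESeq2 called 0 higher and 0 lower (1 and 2 at an unadjusted p under 0.05, and 4 and 2 with edgeR). Without each library in turn edgeR called 0 to 4 higher and 0 to 3 lower, with the counts of 0 without DMSO 1 or DMSO 2 and the highest without wogonin 4. The cause was not tested for any of these. No paired analysis was possible because the groups share no replicate number. Precision is limited by 2 libraries a group and, in introns, by few reads per member.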

Other observations

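NFE2L3, a relative of NRF2 in the same protein family, was lower in exon reads and higher in intron reads. It had 62 and 75 exon reads in wogonin 3 and 4, against 159 and 151 in DMSO 1 and 2 (log2 change -1.02, edgeR adjusted p = 4.77e-05). Its introns held 382 and 244 reads in wogonin, against 31 and 33 in DMSO (log2 change 2.96, edgeR adjusted p = 1.01e-05).

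The antisense transcript MAFG-AS1, annotated 114 bases from MAFG on the opposite strand and named after its value was seen, had 31 and 39 exon reads in wogonin, against 95 and 88 in DMSO. Its log2 change was -1.23 ± 0.22 (SE, edgeR adjusted p = 1.4e-04), where that of MAFG was 1.26.

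SESN2, a sestrin that limits peroxide damage and growth signalling, was also named after its value was seen. It had 508 and 708 exon reads in wogonin, against 1740 and 1631 in DMSO (log2 change -1.32, edgeR adjusted p = 8.85e-04). HMOX2, the constitutive heme oxygenase, chosen in the same way, had 1090 and 969 exon reads in wogonin, against 609 and 680 in DMSO (log2 change 0.83, edgeR adjusted p = 2.38e-07), beside no passed change of inducible HMOX1.

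Among the further redox enzymes, the selenium-binding SELENBP1 and the transferase GSTM2, named after their values were seen, moved far on few reads. SELENBP1 had 5 exon reads in each wogonin library, against 33 and 36 in DMSO (log2 change -2.60, edgeR adjusted p = 5.33e-05). GSTM2, which shares much sequence with other mu-class transferases, had 24 and 21 exon reads in wogonin, against 6 and 8 in DMSO (log2 change 1.82, edgeR adjusted p = 0.0014).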
